A study of Danio rerio with 6 samples.

Results

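The genes described here encode the proteins of the cytosolic ribosome. They were found by symbol in the platform's probe annotation: every probe set with a single symbol starting with rpl or rps and a number, with rplp, or with rpsa, leaving out the rps6k kinases. The rule found 79 of the 15502 probe sets tested, which measured 74 of the 8793 genes that the annotation names singly, 32 with a small subunit symbol and 47 with a large subunit symbol. It used names and no measured value.

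The samples were pools of whole dechorionated zebrafish embryos of the wild-type AB strain, collected at 36 h post fertilisation and measured on 6 arrays. For the last 12 h, from 24 h on, 3 pools had been in 5 µM 11,12-EET, a lipid signal formed from arachidonic acid by cytochrome P450 epoxygenases, and 3 pools in DMSO alone, the vehicle. Per treatment 25 embryos were taken. The replicates are labelled biological with no word on separate clutches, so the p-values measure the spread between these pools, which may be technical.

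A cytosolic ribosome has a small subunit, which reads the message, and a large subunit, which joins the amino acids. Each is built from ribosomal RNA and many small proteins, most of them present once per ribosome, so cells make these proteins in matched amounts. In vertebrates their messages start with a terminal oligopyrimidine (TOP) tract, through which the growth kinase mTOR and the binding protein Larp1 control their translation and stability. A shortage of single ribosomal proteins activates p53. In humans it causes Diamond-Blackfan anaemia, a failure of red cell production, and in zebrafish the loss of a copy of many of these genes leads to nerve sheath tumours.

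No ribosomal protein transcript passed the test between EET and DMSO embryos, and the differences measured were small. Over the 79 probe sets the log2 difference, EET minus DMSO, had a median of 0.031, a ratio of 1.02, and ran from -0.11 at rps15 to 0.27 at rps27l. By group mean 54 probe sets were higher and 25 lower in EET, against 7680 higher and 7822 lower over the whole array, where the median was -0.0023. The test was limma, fitted across all 15502 probe sets with Benjamini-Hochberg adjustment. It called 0 members at an adjusted p under 0.05, and the smallest adjusted p among them was 0.930. The whole array gave 0 calls too (0%). At an unadjusted p under 0.05 there were 0 members, where the array had 5.27%.

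The intervals bound the difference in recorded signal. The 95% interval lay inside 1.5-fold in either direction for 77 of the 79 probe sets and inside 2-fold for all 79. The exceptions at 1.5-fold were a dim probe set of rpl21 and the brighter of the 2 probe sets of rps19bp1. The intervals are wide for such stable probe sets because limma draws each variance toward that of the array, with a prior SD of 0.201, while the pooled SD between replicates of the members had a median of 0.051. With limma's trend and robust settings, which let the prior follow the signal, 5 members (6.33%) had an unadjusted p under 0.05, near the 5.53% of the whole array. These were rpl38, rps21, rps27l, rps4x and rpl26, all higher in EET by group mean, with adjusted p-values of 0.837 to 0.885. That setting called 0 members and 0.0194% of the array. A fit restricted to probe sets at or above the median level held 78 members and called 0 of them, against 0.0774% of that set. In bulk RNA of whole embryos, fewer cells of a type and less RNA per cell cannot be told apart.

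**Figure D1:**
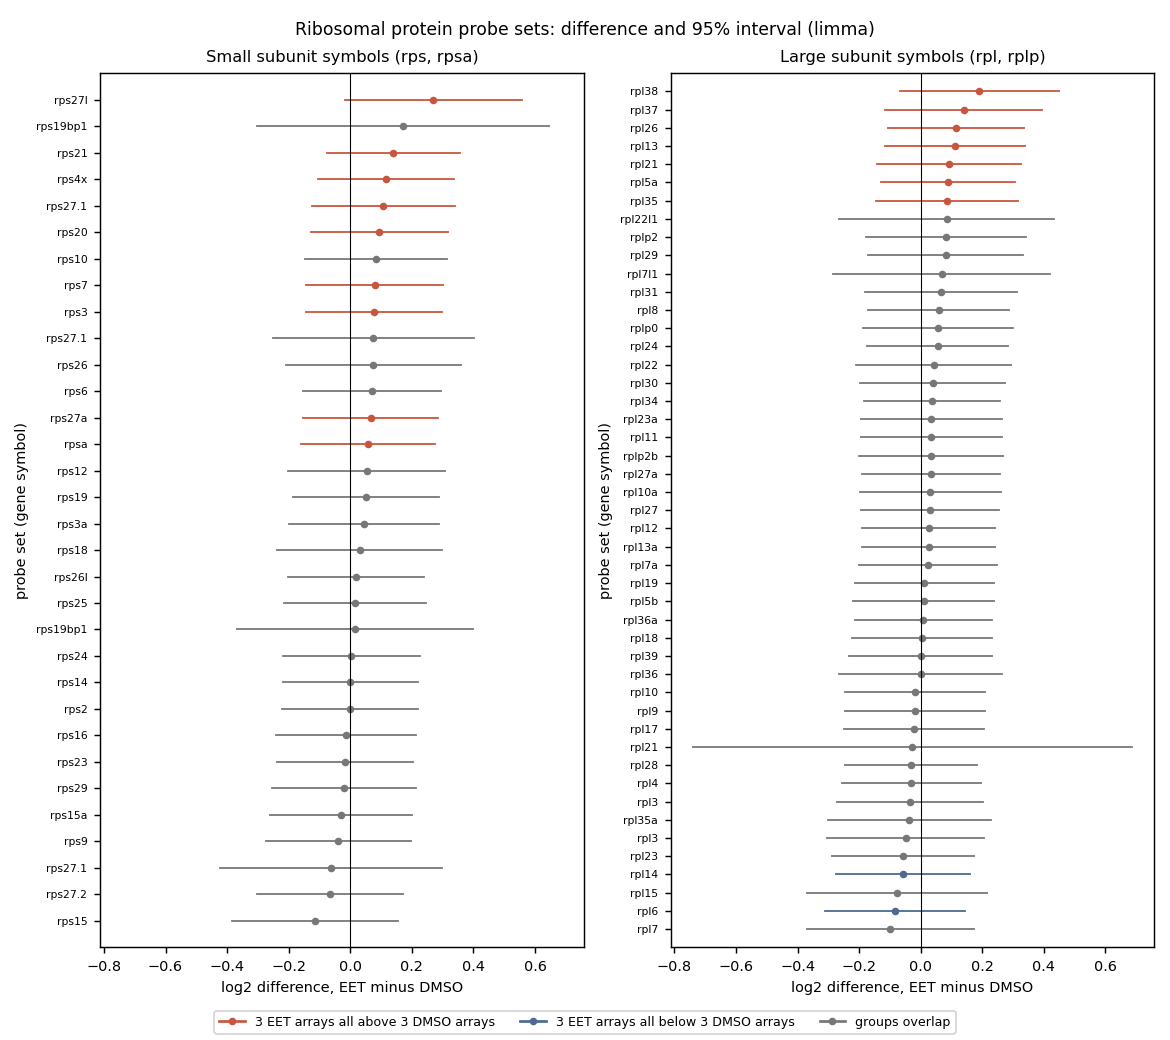
Log2 difference (EET minus DMSO, x axis) of each ribosomal protein probe set (y axis, by gene symbol) with its 95% interval from limma, small subunit symbols on the left and large subunit symbols on the right. Colour marks probe sets whose 3 EET arrays all lay above (16) or all below (2) the 3 DMSO arrays, and every interval includes 0.

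The members were among the strongest and steadiest signals of the array. Of the 79 probe sets, 67 had a mean log2 signal of at least 12 and 71 were among the 200 probe sets with the highest signal, while the median of the whole array was 4.81. Such signals do not rank the genes by message number, since probes differ in binding. The members' pooled SD of 0.051 compares with 0.145 among all probe sets at or above the median level and with 0.070 among the 63 other probe sets at a signal of at least 12. Those 63 still hold some ribosomal genes, such as faua and a probe set that the annotation names for both kank1a and rpl32. Only 1.74% of all probe sets had a pooled SD below the members' median. The smallest was 0.018 at rpl28. For rpl13a, a common reference gene of zebrafish quantitative PCR, the signals were 12.30, 12.26 and 12.28 in DMSO and 12.33, 12.31 and 12.28 in EET. Its groups overlapped and differed by 0.03 ± 0.09 (SE).

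Whether signals this high were compressed cannot be told from the hybridisation controls. The brightest of them, a transcript added at a known amount, stood at 12.22 and lay 1.20 higher per doubling of concentration than the next control. That step is between different transcripts, whose probes may differ in binding, so it cannot show whether signals were compressed. Above the brightest control lay the mean signals of 59 members, and there compression was not tested either.

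Differences were small in both subunits. The 29 small subunit probe sets, with the variant paralogues set aside, had a median difference of 0.045 with 20 higher and 9 lower in EET. The 45 large subunit probe sets, stalk included, had a median of 0.026 with 29 higher and 16 lower. Neither group had a member past the test, and the difference between the subunits was not tested.

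Among small subunit genes the largest differences were on the higher side. The gene rps21, which encodes one of the smallest proteins of its subunit, had signals of 12.15, 12.18 and 12.17 in DMSO and 12.34, 12.29 and 12.30 in EET. All EET arrays lay above all DMSO arrays, with a spread of a few hundredths in each group. Its log2 difference was 0.14 ± 0.09 (SE, limma adjusted p = 0.932).

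The gene rps4x, which encodes a small subunit protein carried on the X chromosome in humans, had the highest mean signal of all members. Its signals were 13.20, 13.15 and 13.22 in DMSO and 13.27, 13.32 and 13.33 in EET, again without overlap, and its difference was 0.12 ± 0.09 (limma adjusted p = 0.932). At the other end stood rps15, a protein of the head of the small subunit, with 12.87, 12.75 and 12.67 in DMSO and 12.72, 12.55 and 12.67 in EET. Its groups overlapped, and the difference of -0.11 ± 0.11 was the lowest of all members. For rps2, which lies near the entry of the message channel, the signals were 13.15, 13.18 and 13.14 in DMSO and 13.20, 13.10 and 13.16 in EET, and the group means were equal to 2 decimals at 13.16.

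Other small subunit genes of known function stayed in the same narrow range. The laminin receptor gene rpsa, whose protein is both a ribosome component and a cell surface receptor, had signals of 12.98, 12.93 and 13.00 in DMSO and 13.04, 13.00 and 13.05 in EET. The groups differed by 0.06 ± 0.09, and the lowest EET array lay above the highest DMSO array only beyond the digits shown. The difference was 0.07 for rps6, whose protein is the namesake target of the S6 kinases, and 0.08 for rps3, which lines the message entry channel. It was 0.07 for rps27a, which is made as a fusion with ubiquitin, and 0.0006 for rps14, whose human counterpart is lost in a myelodysplastic syndrome.

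In the large subunit, rpl38 had the highest difference. Mouse Rpl38 is known for its part in the translation of Hox messages. The signals of rpl38 were 12.42, 12.64 and 12.53 in DMSO and 12.77, 12.67 and 12.73 in EET. The lowest EET array was just above the highest DMSO array, and the difference was 0.19 ± 0.10 (SE, limma adjusted p = 0.931), a ratio of 1.14.

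For rpl37, a small protein bound deep in the ribosomal RNA, the signals were 12.11, 12.04 and 12.09 in DMSO and 12.34, 12.13 and 12.18 in EET. EET replicate 1 was the highest, and the difference of 0.14 ± 0.10 lay between 0.08 and 0.18 with 1 array left out. Lower by group mean were 16 of the 45 large subunit probe sets, those of rpl7, rpl6 and rpl14 among them. The signals of rpl7 were 12.75, 12.70 and 12.59 in DMSO and 12.69, 12.47 and 12.58 in EET, which overlapped, with a difference of -0.10 ± 0.11.

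The gene rpl6 had 12.73, 12.67 and 12.66 in DMSO and 12.54, 12.66 and 12.61 in EET, and rpl14 had 12.36, 12.43 and 12.43 in DMSO and 12.36, 12.35 and 12.35 in EET. These were the 2 members whose EET arrays all lay below the DMSO arrays, by -0.08 ± 0.09 and -0.06 ± 0.09, although the nearest arrays of both groups are equal when rounded as here. At the catalytic core, rpl3 differed by -0.05 and -0.03 at its 2 probe sets, and rpl10, which joins the large subunit late in its maturation, by -0.02.

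**Figure D2:**
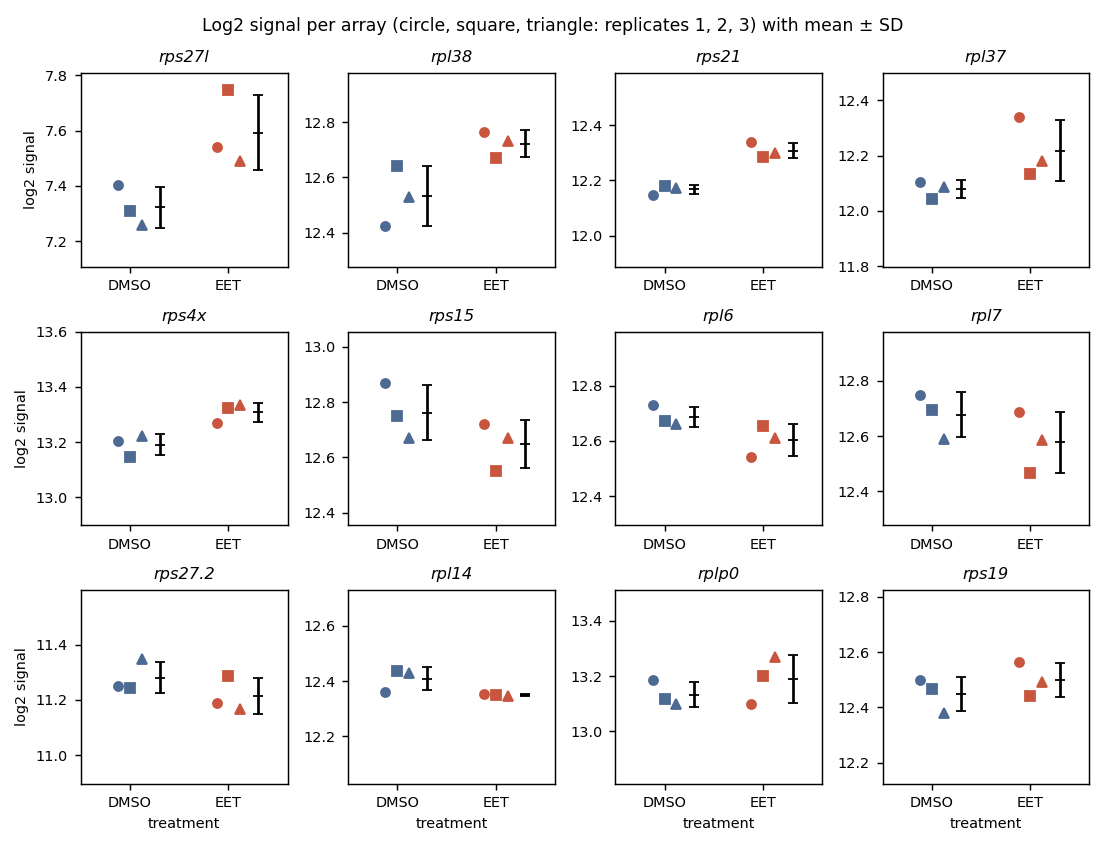
Log2 signal (y axis) in each array by treatment (x axis) for 12 members, with replicates 1, 2 and 3 as circle, square and triangle and the mean ± SD (n = 3) beside them. Each panel spans 0.7 log2 units, and the points of rps21 are the most tightly grouped among the members that did not overlap on the higher side, while those of rplp0 and rps19 overlap.

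The stalk of the large subunit, which recruits the translation factors that hydrolyse GTP, was measured by 3 probe sets. Its scaffold gene rplp0 had signals of 13.19, 13.12 and 13.10 in DMSO and 13.10, 13.20 and 13.27 in EET. The groups overlapped, and the difference of 0.06 ± 0.10 came from the pair of replicate 3 arrays, at 0.17, while the other 4 arrays gave -0.0015. The acidic stalk gene rplp2 had 11.70, 11.62 and 11.61 in DMSO and 11.67, 11.66 and 11.85 in EET, a difference of 0.08 ± 0.10. Its EET replicate 3 was the only array above the DMSO range. The copy rplp2b had 12.51, 12.50 and 12.38 in DMSO and 12.54, 12.50 and 12.45 in EET, a difference of 0.03 ± 0.09.

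The proteins of rpl5 and rpl11 form a particle with the smallest ribosomal RNA and, when free, bind Mdm2 and stabilise p53. Zebrafish have 2 copies of rpl5. The signals of rpl5a were 11.99, 11.99 and 12.01 in DMSO and 12.14, 12.06 and 12.07 in EET, higher in every EET array by 0.09 ± 0.09. Those of rpl5b were 12.44, 12.45 and 12.38 in DMSO and 12.37, 12.46 and 12.47 in EET, which overlapped, with a difference of 0.009 ± 0.091. For rpl11 they were 12.47, 12.38 and 12.38 in DMSO and 12.49, 12.39 and 12.46 in EET, a difference of 0.03 ± 0.09. The p53 regulator mdm2 differed by 0.18 ± 0.15 and the p53 target ccng1 by -0.07 ± 0.13, neither past the test.

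Human Diamond-Blackfan anaemia genes had 20 probe sets here, counting rpl5a, rpl5b, rps27.1 and rps27.2 but not rps26l or rps27l. The 20 had a median difference of 0.043, with 15 higher and 5 lower, from -0.08 at rpl15 to 0.11 at rpl26, and 0 were called. The gene mutated most often in patients, rps19, had signals of 12.50, 12.47 and 12.38 in DMSO and 12.56, 12.44 and 12.49 in EET, which overlapped, with a difference of 0.05 ± 0.09. Zebrafish genes whose loss leads to nerve sheath tumours had 10 probe sets with a median of 0.019, from -0.10 at rpl7 to 0.11 at rpl13, and 0 were called.

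Among all members the largest difference belonged to rps27l, a copy of rps27 that in mammals is a target of p53. Its signals were 7.40, 7.31 and 7.26 in DMSO and 7.54, 7.75 and 7.49 in EET, without overlap. The difference was 0.27 ± 0.11 (SE, limma adjusted p = 0.930), a ratio of 1.21 with a 95% interval on the log2 scale of -0.02 to 0.56. It stayed between 0.19 and 0.32 with 1 array left out, and was 0.29 without the replicate 3 arrays and 0.23 in that pair alone.

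For the other copies of rps27 the differences were smaller or below 0, and the copies were not tested against each other. The gene rps27.2 had 11.25, 11.24 and 11.35 in DMSO and 11.19, 11.29 and 11.17 in EET, a difference of -0.07 ± 0.09 with overlapping groups. The gene rps27.1 had 3 probe sets that disagreed in direction. The brightest, at 12.42, 12.43 and 12.33 in DMSO and 12.45, 12.56 and 12.50 in EET, differed by 0.11 ± 0.09 without overlap. The next had 11.04, 10.92 and 10.79 in DMSO and 11.00, 10.93 and 10.63 in EET, and the dimmest 10.69, 10.80 and 10.60 in DMSO and 10.86, 10.88 and 10.57 in EET. Both of these overlapped, and they differed by -0.06 ± 0.14 and 0.07 ± 0.13.

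The paralogues rpl22 and rpl22l1 are known for opposing roles in the emergence of zebrafish blood stem cells. Their differences were 0.04 ± 0.10 and 0.08 ± 0.14, both with overlapping groups. For rpl22l1 the signals were 11.01, 10.88 and 10.88 in DMSO and 11.15, 11.11 and 10.77 in EET, with EET replicate 3 below all DMSO arrays. The assembly-related paralogue rpl7l1 differed by 0.07 ± 0.14. The symbol rps19bp1 meets the naming rule but stands for a nucleolar protein that binds Rps19 rather than for a ribosomal protein. Its brighter probe set had 6.99, 7.25 and 6.90 in DMSO and 7.39, 7.38 and 6.88 in EET, and the dimmer one 5.77, 5.78 and 5.85 in DMSO and 5.82, 5.56 and 6.07 in EET. Both overlapped, with differences of 0.17 ± 0.19 and 0.01 ± 0.15.

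The dimmest member was a second probe set of rpl21, with 2.68, 2.80 and 1.80 in DMSO and 2.44, 2.36 and 2.40 in EET. It is not known to be above background, and its difference of -0.03 ± 0.28 changed sign with 1 array left out. The bright probe set of rpl21 had 12.18, 12.13 and 12.11 in DMSO and 12.31, 12.19 and 12.18 in EET, higher in every EET array by 0.09 ± 0.09. Of the 79 probe sets, 34 share the cluster number in their name with a probe set of another symbol, rps4x, rpl38, rpl37 and rpl26 among them, so which transcript each detects rests on the platform annotation.

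Small differences in one direction recurred among the members. In 18 probe sets (22.8%) the groups did not overlap, against 11.7% of the whole array. Of these, 16 (20.3%) were higher in every EET array, where the array had 5.81%, and 2 (2.53%) lower, where it had 5.91%. The 16 were rps27l, rpl38, rps21, rpl37, rps4x, rpl26, rpl13, rps27.1, rps20, rpl21, rpl5a, rpl35, rps7, rps3, rps27a and rpsa. Their sizes lay between 0.06 and 0.27. The members share arrays and scale, so these are not separate observations.

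Part of that count depended on the scaling. After quantile normalisation 11 of the 18 still did not overlap, 9 higher (11.4%, against 5.89% of the array) and 2 lower (2.53%, against 5.74%), and the members' median was 0.015. On the deposited scale the 63 other probe sets at a signal of at least 12 had a median difference of 0.0011. Of them 3 (4.76%) were higher in every EET array and 5 (7.94%) lower. The 67 members at such a signal had a median of 0.029, with 15 (22.4%) higher and 2 (2.99%) lower. After quantile normalisation the 63 had a median of -0.0044, with 3 (4.76%) higher and 4 lower. The 67 members then had 0.014, with 8 (11.9%) higher and 2 lower. The 63 include faua and the probe set of kank1a and rpl32, so they are not free of ribosomal genes. RNA quality may also have differed between the groups. By the actin controls, the 3' signal exceeded the 5' signal by 1.74 to 2.01 in the DMSO arrays and by 2.14 to 2.30 in the EET arrays. By the GAPDH controls the ranges were 0.88 to 1.02 and 0.94 to 1.27, which overlapped. A part of RNA quality in the members' values was not tested.

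The members' median level also varied from array to array. Each probe set was set against its own mean over the 6 arrays. The median of this deviation over the members was 0.0042, -0.0020 and -0.043 in DMSO replicates 1, 2 and 3, and 0.028, 0.010 and 0.012 in EET replicates 1, 2 and 3. DMSO replicate 3 was the lowest, with 17 of 79 members above their own mean, while the other arrays had 39 to 51. The pooled SD of this median between replicates was 0.019.

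Without DMSO replicate 3 the members' median difference was 0.020, with 49 higher by group mean. That median was 0.019 without both replicate 3 arrays and 0.053 within that pair. The other probe sets at a signal of at least 12 went the other way in DMSO replicate 3, with a median deviation of 0.024. In a principal component analysis of the members, component 1 held 37.2% of the variance. On it both replicate 3 arrays took values below 0 (-0.71 in DMSO and -0.39 in EET) and the other 4 arrays values above 0. The values were centred but not scaled, so noisy probe sets weigh most, and component 1 need not be shared by the members. The dim rpl21 probe set deviated by -0.61 in DMSO replicate 3. The brighter rps19bp1 probe set deviated by -0.23 in DMSO replicate 3 and -0.25 in EET replicate 3. Both replicate 3 arrays also stood apart over the brighter part of the array. The second component, with 22.3%, had DMSO replicates 1 and 2 at 0.59 and 0.48 and EET replicates 1 and 2 at -0.41 and -0.48. On it DMSO replicate 3 was at -0.15 and EET replicate 3 at -0.018. On this component alone DMSO replicate 3 had the sign of the EET arrays. By the members' median deviation, at -0.043, it was the array furthest from them. Noisy probe sets weigh on the second component too, so it need not be shared by the members either.

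**Figure D3:**
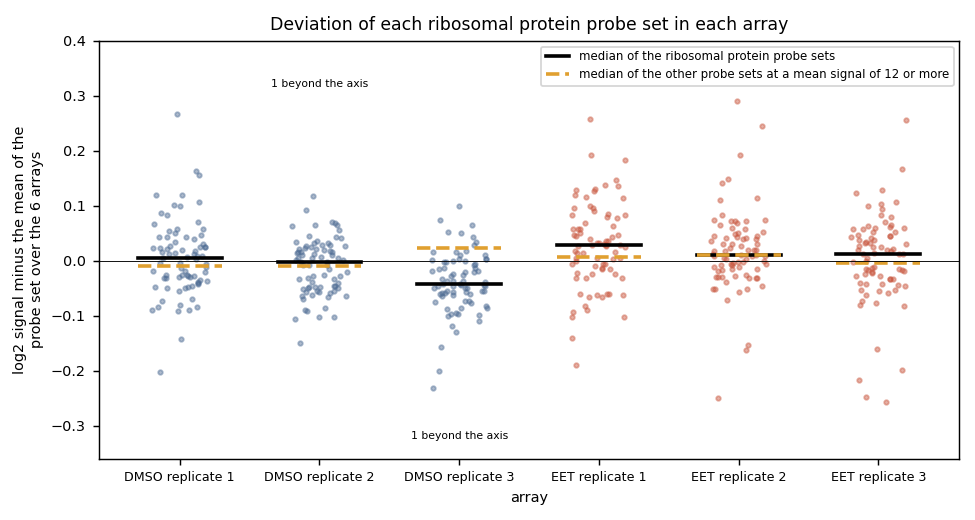
Deviation of each ribosomal protein probe set from its own mean over the 6 arrays (y axis, log2 units) in each array (x axis), 1 point per probe set. The black line is the members' median and the dashed line that of the 63 other probe sets at a signal of at least 12, and in DMSO replicate 3 they lie at -0.043 and 0.024.

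Other genes that serve the ribosome were read from the same fit. Further TOP messages, among them the elongation factor genes, the scaffold rack1 and the ribosomal fusion genes faua and faub, had 25 probe sets with a median difference of 0.029, 15 higher and 10 lower. The median was -0.0024 with the replicate 3 pair left out and 0.062 within it, and 0 were called. Among the 15 higher, the elongation factor gene eef1a1l1 differed by 0.11 ± 0.09 and tpt1, the translationally controlled tumour protein, by 0.06 ± 0.10. In the same direction faua differed by 0.07 ± 0.09 and rack1 by 0.04 ± 0.09. Among the 10 lower, hnrnpa1b differed by -0.19 ± 0.10, with all EET arrays below all DMSO arrays. There pabpc1b differed by -0.12 ± 0.11 and the elongation factor gene eef2b by -0.04 ± 0.10. Initiation factor genes, with the kinases and binding proteins named after them, had 65 probe sets and a median of 0.020, from -0.35 to 0.90. Both ends of that range were below the median level of the array, eif4g3b at a mean signal of 4.78 and a probe set of eif2ak3 at 1.68.

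Mitochondrial ribosomal protein genes had 69 probe sets and lay on the other side of 0. Their median was -0.028, with 32 higher and 37 lower, and 0 were called. It was -0.044 with the replicate 3 pair left out and 0.039 within it. Ribosome assembly genes had 87 probe sets with a median of 0.025, 52 higher and 35 lower, turning to -0.022 with the replicate 3 pair left out and 0.125 within it. In 7 of the 87 (8.05%) all EET arrays were higher, where the whole array had 5.81%. In 5 (5.75%) all were lower, where it had 5.91%. Among these pno1 differed by 0.24 ± 0.09, pwp2h by -0.32 ± 0.11 and the dim rrp8 by -0.37 ± 0.13. The gene bop1, also dim, differed by 1.13 ± 0.33 at a single probe set, while its others lay between -0.07 and 0.07. RNA polymerase I genes had 12 probe sets with a median of -0.12, 5 higher and 7 lower. That median was -0.10 with the replicate 3 pair left out and 0.050 within it. It was -0.12 with quantile normalisation and -0.013 with log2(2^value + 32), which shrinks the differences of dim probe sets.

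Regulators of ribosome production showed no call either. Genes of the mTOR pathway and the S6 kinases had 15 probe sets with a median of -0.011, which was 0.0014 without the replicate 3 pair. Myc family genes had 10 with a median of -0.012, which was -0.076 without that pair and -0.058 within it. The 2 probe sets of mycn disagreed in direction, at -0.33 ± 0.20 and 0.15 ± 0.13. The translation repressor gene eif4ebp1 was lower in every EET array by -0.21 ± 0.09 (limma adjusted p = 0.930). Differences were 0.20 ± 0.14 for larp1, -0.27 ± 0.19 for the dim mtor and -0.02 ± 0.23 for the S6 kinase gene rps6kb1b. The kinase gene rps6ka1, which acts downstream of MAP kinases, had the smallest p of these lists, with a difference of 0.41 ± 0.10 and an adjusted p of 0.793 in limma. The mean signal of rps6ka1 was 4.04, below the median of the whole array. The 6 measured p53 response genes had a median of 0.15, which was 0.021 without the replicate 3 arrays and 0.054 with log2(2^value + 32).

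**Figure D4:**
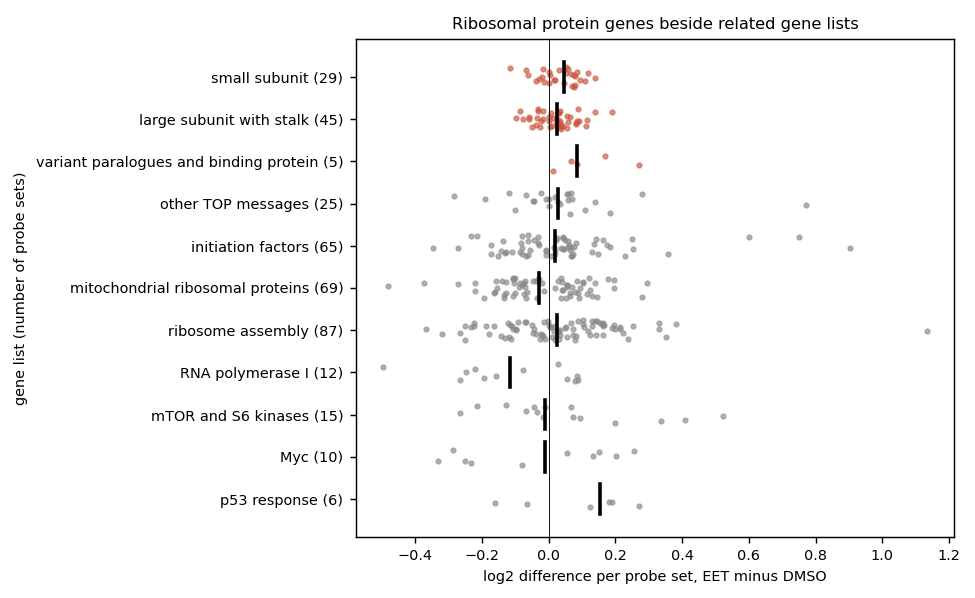
Log2 difference of each probe set (EET minus DMSO, x axis) for the ribosomal protein genes (red) and for related gene lists (grey), with the median of each list as a black bar. The 29 small and 45 large subunit probe sets lie between -0.11 and 0.19, and the variant paralogues and binding protein between 0.01 and 0.27. The lists in grey spread more widely, and their median signals were lower, at 4.78 to 10.80 against 12.51 and 12.53 for the small and large subunit.

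Array medians lay between 4.81 and 4.82, and across probe sets the correlations between arrays were 0.943 to 0.957. Marker genes fitted the whole-embryo label: 20 of 22 measured markers of blood, muscle, nerve, epidermis and other tissues were above the median level. The globin gene hbae3 had a mean of 12.89 in both groups and the endothelial gene kdrl 6.78 in DMSO and 6.72 in EET. The lens gene cryaa and the pigment gene tyr were below the median level.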

How the data were processed

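RNA of the pooled embryos (6 µg of total RNA per the labels' protocols) was biotin-labelled for Affymetrix arrays of 1 colour. The authors deposited log2 values, 1 per probe set and array. Background correction, summarisation and scaling are not given in the sources used here, and neither is the log base. It was read from the values: the highest, 13.63, as a natural log would exceed what such a scanner records. There were no detection calls, and the number of arrays limits the precision.

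The table had 15617 probe sets, of which 115 are controls and were not tested. Symbols came from the platform annotation, without coordinates because it states no build. All 79 member probe sets matched a RefSeq gene table of GRCz12tu by Entrez identifier, and 0 symbols changed.

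EET was set against DMSO with lmFit and eBayes of limma 3.58.1 (R 4.3.3), 2-sided and without covariates. P-values were adjusted by Benjamini-Hochberg over the 15502 tested probe sets, and a call needed an adjusted p under 0.05. The script was checked on simulated data. Lists are described by counts and medians. The members and lists were chosen with earlier results of these data known. Values in every array are given for the members with the 5 smallest p in each direction, those whose probe sets disagree, the 3 highest and 3 lowest signals, and the stalk, rpsa, rpl5, rpl11 and rps19. Other genes were named for their role or after their values were seen. Alternatives were quantile normalisation, median centring, dim filters, log2(2^value + 32), trend and robust, array weights, a replicate block, replicate 3 as a batch or left out, single arrays left out and other thresholds.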

Additional observations from a re-analysis of the deposited data

How the results depend on the processing

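The count of 0 ribosomal protein probe sets called by limma was the same under every alternative run, with 0 to 5 members at an unadjusted p under 0.05. Over the whole array, against 0 calls, 1 was called with array weights, 1 after median centring, 1 at an adjusted p under 0.10, 2 with log2(2^value + 32), 3 with trend and robust and 6 without probe sets below the median level, and 0 with any array left out. None of these was a member. The 18 members without overlap became 11 with quantile normalisation, where 11.6% of the whole array did not overlap. They became 38 without both replicate 3 arrays and 22 to 28 with 1 array left out. Smaller groups overlap less often by construction. The whole-array share for those sets is not given here, so these counts cannot be set against the array. The members' median of 0.031 stayed above 0 throughout, between 0.020 and 0.036 with 1 array left out, where leaving out DMSO replicate 3 gave the lowest value. The replicate block and replicate 3 as a batch term cannot change the differences in this balanced design, so the median was 0.031 again by construction. With these terms 0 members were called by limma, the smallest adjusted p being 0.849 and 0.801. Deviations of arrays with replicate numbers 1, 2 and 3 correlated at 0.042, 0.056 and 0.148 over all probe sets, at 0.177, 0.239 and 0.554 over the brighter probe sets and at 0.179, 0.133 and 0.245 over the members. Pairing by number thus depends on the probe sets used, and the fit is reported without the block, which changed no call.

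Among the members chosen by the rule above for values in every array, sign changes fell on probe sets whose difference was smaller than its SE. These were rpl5b at -0.0080 with quantile normalisation and -0.034 without the replicate 3 arrays, rplp0 at -0.0015 and the dimmer rps19bp1 at -0.085 without those arrays, rps19bp1 at -0.042 with array weights, and rps2 at 0.0026 after median centring. With 1 array left out the ranges that crossed 0 were -0.34 to 0.16 for the dim rpl21, -0.013 to 0.043 for rpl5b, -0.0073 to 0.056 for rplp2b, -0.11 to 0.14 for the dimmer rps19bp1, -0.024 to 0.026 for rps2 and -0.13 to 0.051 for the rps27.1 probe set with a negative difference.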
